A study of Mus musculus with 104 samples.

Results

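Vasopressin (Avp), oxytocin (Oxt), the oxytocin receptor (Oxtr) and the vasopressin receptor 1a (Avpr1a) are 4 of the 18193 genes that the arrays measured with a probe set of a single gene symbol. The genes were chosen by name. Each was read from its brightest such probe set, the one with the highest mean over all arrays. The study measured RNA in 52 regions of the mouse nervous system and neighbouring glands with Affymetrix arrays, 2 arrays per region. The mice were male Balb/c, 7 to 8 weeks old, and had been kept in 12 h of light and 12 h of dark; the growth protocol says that samples were taken under that cycle or in constant darkness, without saying which array had which. Tissue was cut out on both sides of frozen slices, at 4-h intervals over 1 day, and the RNA of the 6 times was pooled before labelling, so no time of day can be read. The study took each region 2 times; the labels do not say whether from different animals, so every p below measures the spread between these arrays.

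The regions fall into 13 hypothalamic ones, 36 others of brain and spinal cord, and the pituitary, the pineal gland and the retina. The hypothalamic ones are the preoptic area with basal forebrain (POA/BF), the medial preoptic area (MPA), the suprachiasmatic (SCN), supraoptic (SO) and paraventricular (Pa) nuclei, the ventral and dorsal subparaventricular zones (SPa), the dorsomedial (DM), ventromedial (VMH) and arcuate (Arc) nuclei, the lateral hypothalamus (LH), the mammillary body (M) and the median eminence (ME). Values are log2 levels. Their median over all arrays and all probe sets but the controls was 7.39. The lowest and highest values, with controls included, were 3.88 and 15.15. A level of one probe set is not set against that of another here, since probe sets differ in brightness. A gene is called different where its Benjamini-Hochberg adjusted p over all genes is under 0.05 and the difference is at least 2-fold, that is 1 on the log2 scale. Replicates correlated at 0.972 to 0.998. Against the mean of the other arrays, genes of the POA/BF arrays correlated at 0.983, while their control probe sets correlated at -0.43 and -0.44, against 0.970 to 0.999 on the others. The retina held pituitary genes, with Gh at 14.69 against a median of 7.51 over the 50 regions other than retina and pituitary.

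Vasopressin and oxytocin are short peptides cut from larger precursors. The magnocellular neurons of SO and Pa send them down axons through the median eminence to the posterior pituitary, which releases them to the blood to act on kidney and vessels, and on uterus and mammary gland. Smaller neurons use them within the brain, among them the vasopressin neurons of the SCN, the circadian clock. Oxtr and Avpr1a are receptors on the cell surface that signal through Gq proteins and phospholipase C, and are known in rodents for their part in social behaviour.

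Avp and Oxt are neighbours on mouse chromosome 2, on opposite strands with 3565 bases between them. In GRCm38.p6 (RefSeq), Oxt lies on the plus strand at chr2:130574519-130577054 and Avp on the minus strand at chr2:130580620-130582588. Since both peptides followed much the same map of regions, the 250 bases before the start of each are shown, read 5′ to 3′ on the gene's own strand from the RefSeq promoter table of that build. For Avp this is chr2:130582589-130582838, with the letters CACGTG, the core of the E-box that clock proteins bind, in capitals. For Oxt it is chr2:130575919-130576168, with the letters AGGTCA and their reverse complement TGACCT, the core of nuclear receptor sites, in capitals. The start used for Oxt in that table lies inside the annotated span of the gene.
Avp: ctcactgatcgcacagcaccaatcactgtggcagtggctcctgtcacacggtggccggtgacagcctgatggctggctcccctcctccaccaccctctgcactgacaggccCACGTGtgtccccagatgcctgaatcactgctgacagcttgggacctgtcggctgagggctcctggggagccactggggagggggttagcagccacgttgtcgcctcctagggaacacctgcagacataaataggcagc
Oxt: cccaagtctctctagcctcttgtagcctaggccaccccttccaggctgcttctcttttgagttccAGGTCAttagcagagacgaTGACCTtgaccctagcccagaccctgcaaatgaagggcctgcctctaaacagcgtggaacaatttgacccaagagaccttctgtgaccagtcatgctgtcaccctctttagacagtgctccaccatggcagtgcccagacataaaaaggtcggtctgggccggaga
CACGTG stood in Avp at bases -139 to -134 from the start, and is present in 6.02% of the 32851 promoters of the table. AGGTCA stood in Oxt at -185 to -180 and, on the other strand, at -166 to -161; it is present in 14.02% of promoters. Oxtr, on chromosome 6 at 112473683 to 112491035, held CACGTG at -43 to -38 and AGGTCA at -98 to -93. Its 250 bases, at 112489826 to 112490075 on the minus strand, lie inside that span, as does the start used. Avpr1a, on chromosome 10 at 122448499 to 122453453, held only TGACG, at -165 to -161, which 17.8% of promoters hold. The full cyclic AMP element TGACGTCA, which contains TGACG, was in 0 of the 4 and in 1.55% of all. The letters were searched on both strands, and a match is a description of the sequence only.

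Vasopressin mRNA was far above its usual level in 10 of the 13 hypothalamic regions. SO had 14.28 and 14.41, and Pa had 14.20 and 13.73. POA/BF came next with 13.21 and 13.90, then Arc with 12.81 and 13.32. These 8 arrays were the highest of all, and those of SO lay above the rest. MPA had 12.09 and 12.51, the SCN had 12.43 and 11.70, and ME had 11.76 and 10.75. The ventral SPa had 10.48 and 10.01, VMH 9.83 and 10.19, and LH 9.57 and 10.25. The other hypothalamic regions were lower: the dorsal SPa had 7.55 and 7.78, M had 7.05 and 7.17, and DM had 7.09 and 7.03, beside a median region of 7.20. In punched tissue, fewer cells and less mRNA per cell cannot be told apart.

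The order of the Avp levels had few clear steps. The 95% interval of a difference between 2 region means extended 0.42 to either side. Of the 51 gaps between neighbours in the order, 5 were wider: those below POA/BF, Arc, the SCN, ME and LH. Within SO, Pa and POA/BF, within MPA and the SCN, and within the ventral SPa, VMH and LH, the gaps were narrower than this. The dorsal SPa, at 7.66, stood above the median region of 7.20 by more than 0.42, and M and DM did not. Outside the hypothalamus, the pituitary had 8.63 and 8.27, and 4 forebrain regions stood above the median region by more than the interval. They were the ventral anterior and ventrolateral thalamus with 8.06 and 8.56, the ventral posterior thalamus with 8.00 and 8.16, the globus pallidus with 8.18 and 7.97, and the lateral geniculate body with 8.15 and 7.76. Oxt did not stand above its median region there by more than its own interval. The lowest region was the anterior olfactory bulb, at 6.84.

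Oxytocin mRNA led in Pa, with 14.84 and 14.27, followed by MPA with 14.26 and 14.18 and by SO with 13.92 and 14.31. POA/BF had 13.28 and 13.84, and Arc 12.94 and 13.12. The SO arrays reached from below those of MPA into those of Pa, and both Arc arrays lay below those of POA/BF. The ventral SPa had 12.02 and 12.07, LH 11.31 and 12.42, ME 12.09 and 11.28, and the SCN 11.52 and 11.32. VMH had 11.37 and 10.76. The pituitary was the one region outside the hypothalamus with a clear excess, at 11.15 and 11.24. Below these 11 regions the levels were flat: the 41 others lay between 9.75 in CA1 of the hippocampus and 10.17 in the lateral caudate putamen, around a median region of 10.04. The dorsal SPa at 10.17, M at 10.14 and DM at 10.09 were among them. The interval of a difference extended 0.37 to either side, and 4 of 51 neighbour gaps were wider, below SO, POA/BF, Arc and VMH. Even the lowest region was above the median of all values, and how much of that floor is oxytocin mRNA was not tested.

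**Figure D1:**
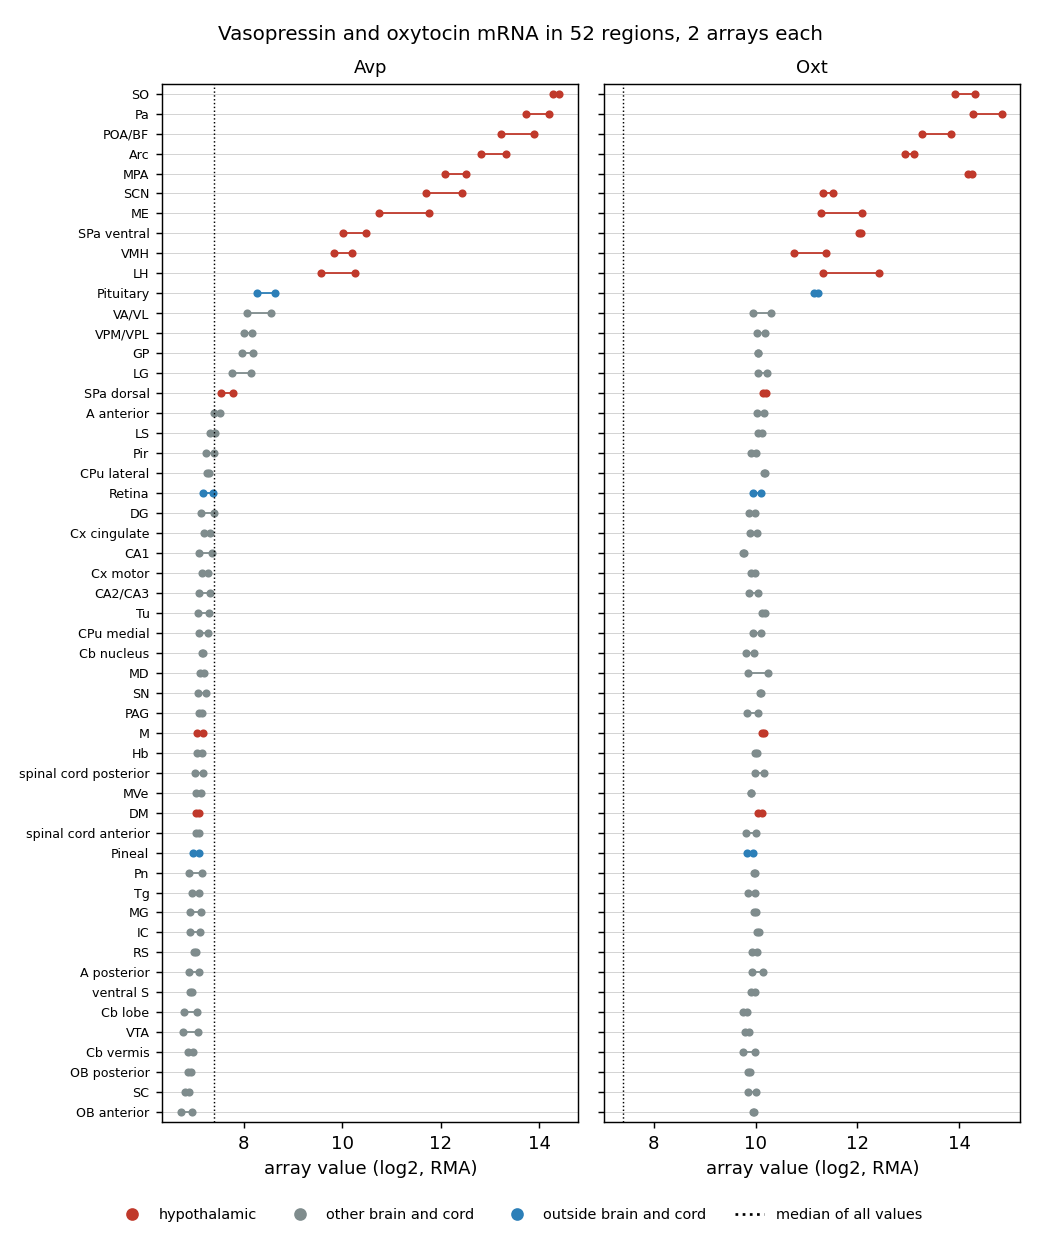
Levels of Avp (left) and Oxt (right) on the 2 arrays of each of the 52 regions, on the log2 RMA scale, with regions in the order of mean Avp. Points are arrays, lines join the 2 of a region, and the dotted line is the median of all values. Hypothalamic regions fill the top of both panels, except the dorsal SPa, M and DM, which sit among the other regions. Of these 3, only the dorsal SPa stood above the median region for Avp by more than the 95% interval.

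Region means spanned 7.51 for Avp and 4.80 for Oxt, from lowest regions whose signal was not shown to be above background. Avpr1a spanned 1.36 and Oxtr 0.65, against a median span of 1.24 over all genes. By limma's F test over the 52 regions with a 2-fold span required, Avp (adjusted p = 4.19e-49), Oxt (3.99e-40) and Avpr1a (3.75e-15) were called. This is 3 of the 4, where 60.3% of all genes were called. Oxtr had an adjusted p of 1.2e-05 and did not reach the 2-fold span; 20.9% of genes spanned less. Most genes differ across regions this broad, so the sizes say more than the calls.

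The hypothalamus was first set against the rest of brain and cord. Avp averaged 10.97 over the 13 hypothalamic regions and 7.21 over the 36 others, a difference of 3.75 ± 0.05 (SE; 95% interval 3.66 to 3.85; adjusted p = 8.73e-58). Oxt averaged 12.15 in the hypothalamus and 9.98 elsewhere, a difference of 2.17 ± 0.04 (2.08 to 2.25; adjusted p = 4.66e-48). Avp and Oxt were called, 2 of the 4 genes, where 1.68% of all genes were called in either direction. Avpr1a averaged 7.68 in the hypothalamus and 7.35 elsewhere, a difference of 0.33 ± 0.02 with an adjusted p of 1.38e-18 that was short of 2-fold. Oxtr averaged 7.40 in the hypothalamus and 7.44 elsewhere (-0.04 ± 0.02; adjusted p = 0.075). Arrays of the hypothalamic and other regions overlapped for all 4 genes, as they did for every gene: 0 of 18193 were free of overlap in either direction. Treating the 49 region means as the samples, which takes in the spread between regions, gave adjusted p of 2.64e-09 for Avp and 1.21e-08 for Oxt.

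SO and Pa together exceeded the mean of the 11 other hypothalamic regions by 3.77 ± 0.12 for Avp and by 2.58 ± 0.10 for Oxt (adjusted p = 1.17e-35 and 8.11e-30; 0.456% of genes called). Between SO and Pa no member was called, where 6.08% of genes were: Avp differed by 0.38 (95% interval -0.05 to 0.80), with both SO arrays above both Pa arrays (as for 30.2% of genes), and Oxt by -0.44 (-0.81 to -0.06; adjusted p = 0.060). With 1 array left out, the Avp difference was between 0.14 (without Pa replicate 2) and 0.62 (without Pa replicate 1), and that of Oxt between -0.72 (without Pa replicate 2) and -0.16 (without Pa replicate 1). Oxt was at -0.24 without SO replicate 1 and -0.64 without SO replicate 2. Quantile normalization gave 0.15 for Avp. Values above 14 are rare on these arrays, at 0.0218% of all, and whether the scale is compressed there was not tested. The meninges and fibroblast markers averaged 2.37 above their 52-region mean in SO and 0.65 below it in Pa, and those of parvocellular paraventricular neurons (Crh, Trh and Sim1) averaged 0.40 above it in SO and 2.04 above it in Pa. The part of both lists in these differences was not tested. Sim1 is also a factor of supraoptic development, so the parvocellular list does not by itself separate those neurons from magnocellular ones.

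Avp was higher in the SCN than the mean of the other non-magnocellular hypothalamic regions, and Oxt was not. Within that mean, POA/BF, Arc and MPA had higher Avp means than the SCN. The arrays behind it ran from 7.03 to 13.90 and overlapped those of the SCN. Avp was also higher in POA/BF than in MPA, where Oxt was not. In the SCN, Avp averaged 12.06, against 10.22 over the 10 other non-magnocellular hypothalamic regions, a difference of 1.85 ± 0.16 (1.53 to 2.16; adjusted p = 3.25e-15; 2.27% of genes called). Oxt averaged 11.42 in the SCN and 11.79 in those regions, a difference of -0.37 ± 0.14 that was short of 2-fold (-0.64 to -0.09; adjusted p = 0.028). The Oxt difference depended on the arrays and regions compared: it was -0.27 without SCN replicate 2 (adjusted p = 0.288), -0.46 without SCN replicate 1 (0.081), -0.17 without POA/BF (0.307) and -0.11 without POA/BF and the ventral SPa (0.527). All 6 measured SCN markers were higher there, among them Vip at 13.73, and so were 4 of 10 meninges and fibroblast markers (median difference 0.89, beside -0.05 for all genes); their part in the peptide differences was not tested.
In POA/BF, Avp averaged 13.56, against 12.30 in MPA, and both arrays were above both MPA arrays, as for 34.6% of genes. The difference of 1.26 ± 0.21 (0.84 to 1.68; adjusted p = 2.3e-06) was called, where 4.15% of genes were. Without POA/BF replicate 2 it was 0.92, short of 2-fold. Oxt ran the other way, with 13.56 in POA/BF and 14.22 in MPA (-0.66 ± 0.19; -1.03 to -0.29; adjusted p = 0.0037), short of 2-fold, and at -0.38 without POA/BF replicate 1 (adjusted p = 0.193). Of the meninges and fibroblast markers, 9 of 10 were higher in POA/BF, as were 5 of 6 markers of cholinergic basal forebrain neurons; their averages relative to the 52-region mean were 2.29 and 1.90 in POA/BF, against -0.81 and -0.05 in MPA. Their part in the peptide differences was not tested.

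The ventral and dorsal parts of the subparaventricular zone, which receives the main output of the SCN, were far apart. Avp averaged 10.24 in the ventral SPa and 7.66 in the dorsal SPa, a difference of 2.58 ± 0.21 (adjusted p = 1.33e-14), and Oxt averaged 12.04 in the ventral and 10.17 in the dorsal, a difference of 1.87 ± 0.19 (adjusted p = 1.91e-11). Both peptides were called, where 0.764% of genes were, and both had every ventral array above every dorsal one, as 23.9% of genes had. Of the SCN markers, 5 of 6 were higher in the ventral SPa, with averages of 1.34 above the 52-region mean there and 0.19 below it in the dorsal SPa. Vip was at 9.09 in the ventral and 6.19 in the dorsal. Of the 3 parvocellular markers, 1 was higher in the ventral SPa (median difference 0.69, beside -0.01 for all genes). Of the 4 VMH markers, 3 were lower in the ventral SPa; they averaged 0.63 above the 52-region mean there and 2.05 above it in the dorsal SPa, beside 2.23 in VMH itself. The part of these marker lists in the peptide differences was not tested.

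Along the path to the pituitary, both peptides were lower in ME than in the adjoining Arc. Avp averaged 11.26 in ME and 13.06 in Arc (-1.81 ± 0.21; adjusted p = 2.81e-09), and Oxt averaged 11.68 in ME and 13.03 in Arc (-1.35 ± 0.19; adjusted p = 2.26e-07); both were called, where 0.852% of genes were, and both had every ME array below every Arc array, as 26.2% of genes had. The call for Oxt was lost without ME replicate 2, where the difference was -0.94. Of the anterior and intermediate pituitary markers 3 of 7 were higher in ME (median difference 0.57), as were 4 of 10 meninges and fibroblast markers (0.87). The parvocellular markers averaged 0.64 below the 52-region mean in ME and 0.66 below it in Arc. The part of these lists was not tested. The pituitary was then set against the mean of 49 brain and cord regions, where 13.3% of genes were called and no member was. Those 49 include the 13 hypothalamic regions, which averaged 12.15 for Oxt and 10.97 for Avp, against 9.98 and 7.21 in the 36 others. The pituitary was not tested against the 36 alone. Oxt averaged 11.19 in the pituitary and 10.56 in brain and cord (0.63 ± 0.13; adjusted p = 3.74e-05), and Avp averaged 8.45 in the pituitary and 8.21 in brain and cord (0.24 ± 0.15; -0.06 to 0.54). The Avp difference was 0.06 without pituitary replicate 1, 0.42 without replicate 2, 0.35 without POA/BF (adjusted p = 0.035) and 0.56 without ME, SO and Pa (9.99e-04). The Oxt difference was 0.60 to 0.82 over the alternatives other than leaving out 1 array, short of 2-fold in each. Anterior and intermediate pituitary markers were higher in the pituitary for all 7 measured. Of the 4 measured tanycyte and pituicyte markers, 0 were higher and 1 was lower, and the share of posterior lobe in these samples was not tested.
In VMH, Avp averaged 10.01, against 11.05 over the 12 other hypothalamic regions (-1.04 ± 0.16; adjusted p = 3.27e-07), and Oxt averaged 11.07, against 12.24 (-1.17 ± 0.14; adjusted p = 5.15e-10), where 1.33% of genes were called. Lower too in VMH were 7 of 10 meninges and fibroblast markers (median difference -1.20), 2 of 3 parvocellular markers (-1.17) and 2 of 6 SCN markers (-0.63), whose part was not tested. These calls lean on SO and Pa: without them among the others, the differences were -0.41 for Avp and -0.76 for Oxt, both short of 2-fold. The Avp call was also lost without VMH replicate 1 (-0.85) or ME replicate 1 (-0.99), without POA/BF (-0.81), and after centring (-0.98) or quantile normalization (-0.96) of the arrays, and the Oxt call without VMH replicate 2 (-0.87).

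**Figure D2:**
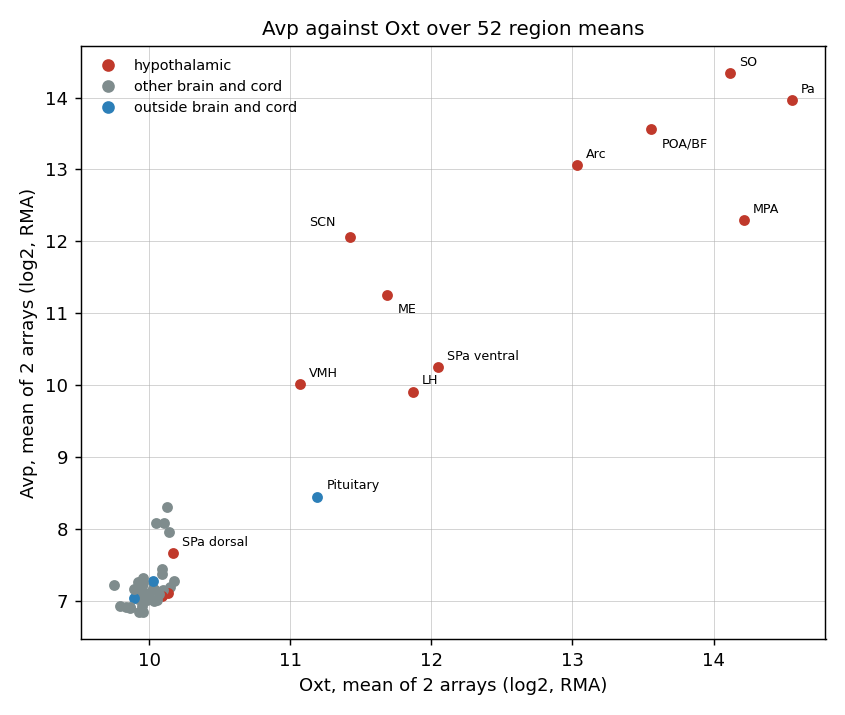
Mean Avp level (vertical axis) against mean Oxt level (horizontal axis), both log2 RMA, for the 52 regions. Hypothalamic regions and the pituitary run up from a dense group of low regions, with the SCN to the left of the main course and MPA to the right.

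Over the 52 region means Avp and Oxt correlated at r = 0.96 (Spearman's rho 0.77), and at 0.94 without SO and Pa. Within the 13 hypothalamic regions r was 0.91 and rho 0.89, and within the 36 other brain and cord regions r was 0.54. Regions share arrays, normalization and one dissection scheme, so these are descriptions. Oxtr, on the probe set that spanned only 0.65, correlated at -0.05 with Avp and at -0.04 with Oxt over the 52 regions. In the 13 hypothalamic regions these values were 0.28 and 0.18, and in the 36 others 0.02 and 0.32. Avpr1a correlated with Avp at 0.46 (rho 0.38) and with Oxt at 0.40 (rho 0.46) over the 52 regions. Within the hypothalamus these values were -0.04 and -0.18, and in the other brain and cord -0.01 and 0.15.

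Among 10002 genes whose regions spanned at least 1 and whose highest region was not below 7.39, the pattern most like Avp was that of Oxt. Next came Otp (r = 0.77), a homeodomain factor needed for hypothalamic neuroendocrine neurons, the sodium channel gene Scn9a (0.70), the chaperone gene Hspa13 (0.69) and Gal (0.69), which codes for galanin. For Oxt, Avp was followed by Otp (0.75), Gal (0.73), Hspa13 (0.69) and Cckar (0.69), a cholecystokinin receptor. Without Pa and MPA, the value for Cckar was 0.49. All are over 52 regions.

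The oxytocin receptor varied little on its brighter probe set. The posterior amygdala had 7.92 and 7.83, the CA2/CA3 fields of the hippocampus 7.84 and 7.70, and the ventral subiculum 7.57 and 7.77. The pituitary had 7.47 and 7.81, and VMH 7.54 and 7.56. The lowest region was the cerebellar lobe, at 7.23, and the median region was at 7.42. No gap between neighbours exceeded the interval of 0.19, and only the first 4 of these regions stood above the median region by more.
A second probe set of Oxtr, taken up after the data were seen, had nearly the same mean over all arrays, 7.40 against 7.43 for the brighter one, and a wider span, 2.20 against 0.65. On it the posterior amygdala had 8.84 and 9.16, above every other array. The anterior amygdala had 8.28 and 8.52, the ventral subiculum 8.15 and 8.59, and CA2/CA3 8.32 and 8.24. The pineal gland had 8.29 and 8.16, VMH 8.08 and 8.21, and the piriform cortex 7.86 and 7.99. A gap wider than the interval of 0.28 lay below the first and below the seventh of these. The lateral septum at 7.65 and the periaqueductal gray at 7.63 were the other regions above the median region of 7.31 by more than the interval, and the cerebellar lobe was again lowest, at 6.80. The probe sets correlated at r = 0.73 (rho 0.55) over the regions and shared 3 of their highest 5. The pineal gland and the anterior amygdala were among the highest 5 on the second alone.

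**Figure D3:**
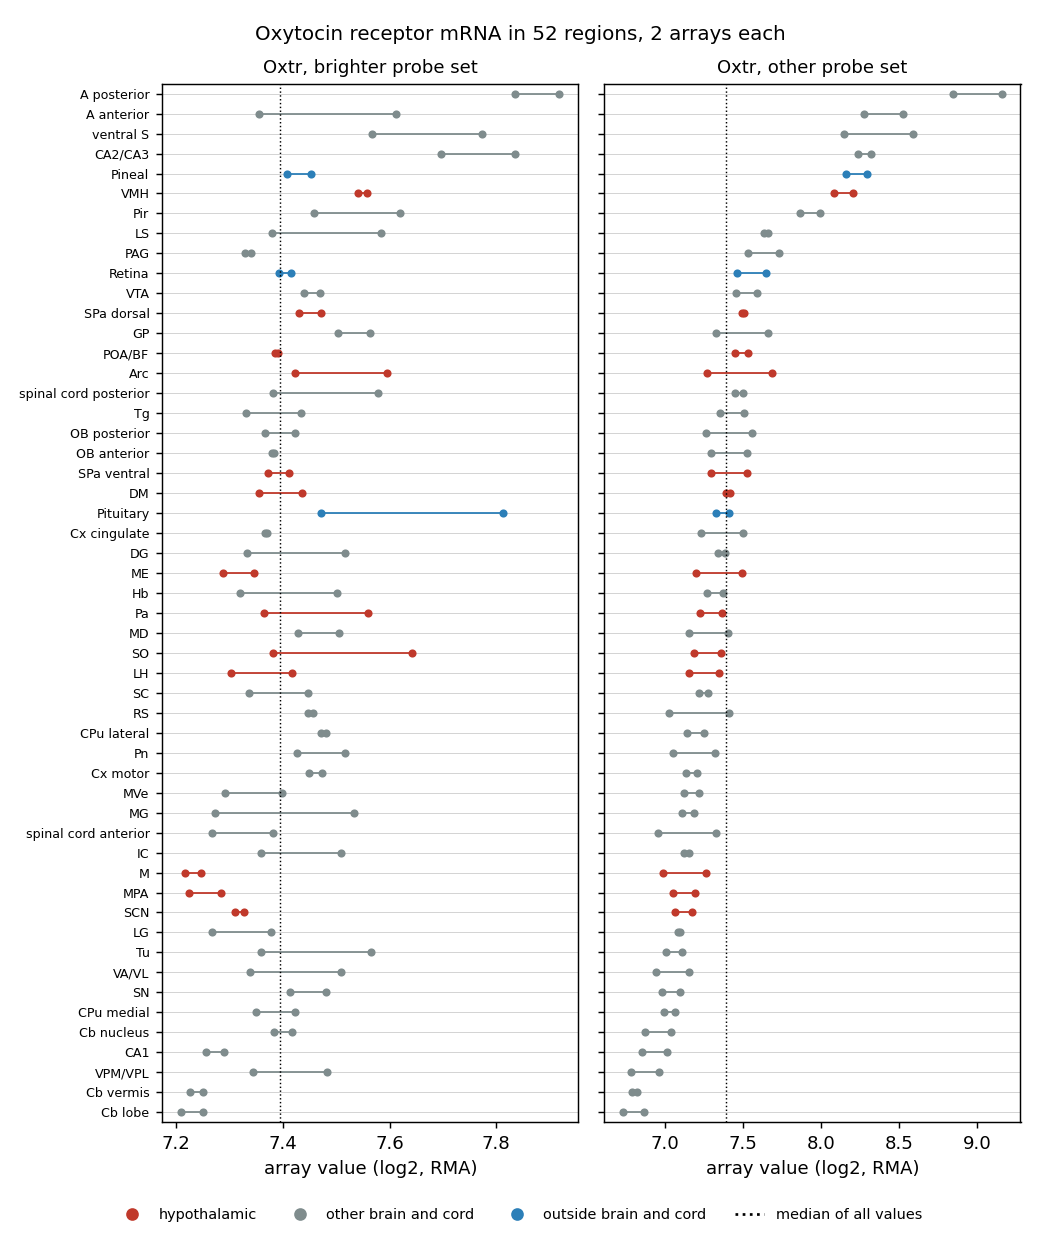
Levels of Oxtr on the brighter probe set (left) and the other one (right), 2 arrays per region, log2 RMA, with regions in the order of the right panel. The posterior amygdala is highest in both, and the axis of the left panel covers a much smaller span.

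Within the hippocampal formation Oxtr averaged 7.77 in CA2/CA3 and 7.27 in CA1, a difference of 0.49 ± 0.10 (0.30 to 0.68; adjusted p = 6.77e-05), and both CA2/CA3 arrays were above both CA1 arrays, as for 35.8% of genes. No member was called on its brighter probe set, where 1.83% of genes were. On the second probe set the means were 8.28 in CA2/CA3 and 6.93 in CA1, and the difference of 1.34 was past 2-fold (adjusted p = 1.39e-11 over 34945 probe sets, of which 1.78% were called). Of 5 markers of CA2 neurons, 3 were higher in CA2/CA3. The vasopressin receptor gene Avpr1b, also on that list, was not called. In the ventral subiculum Oxtr averaged 7.67, against 7.27 in CA1 (0.40 ± 0.10; adjusted p = 6.11e-04), and 8.37 against 6.93 on the second probe set, a difference of 1.43 past 2-fold. Of all genes 3.59% were called, and of all probe sets 4.5%. No CA2 marker was higher there and 1 was lower.
Between the posterior and the anterior amygdala, Oxtr averaged 7.88 in the posterior and 7.48 in the anterior on the brighter probe set (0.39 ± 0.10; adjusted p = 0.0037) and 9.00 in the posterior and 8.40 in the anterior on the second (0.60; adjusted p = 0.0024); neither was called, where 0.808% of genes were. On the brighter one it was 0.26 without anterior amygdala replicate 1 (adjusted p = 0.180) and 0.35 without posterior amygdala replicate 1 (0.067). In VMH Oxtr averaged 7.55, against 7.38 in the 12 other hypothalamic regions (0.17 ± 0.07; adjusted p = 0.070), and on the second probe set 8.14 against 7.32 (0.83; adjusted p = 2.79e-09), both short of 2-fold. VMH markers were higher in VMH for 3 of 4. The olfactory bulb showed no difference for any member between its posterior and anterior parts (2 of all genes called, 0.011%); for Oxtr the difference was 0.01 with an interval of -0.18 to 0.20.

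The vasopressin receptor 1a was highest in the SCN, with 8.52 and 8.41, above all other arrays. DM had 7.93 and 8.05, the lateral septum 8.14 and 7.68, and the ventral SPa 7.77 and 7.90. VMH at 7.70, POA/BF at 7.68, MPA at 7.67, Pa at 7.66 and the ventral tegmental area at 7.61 followed. These 9 regions stood above the median region of 7.35 by more than the interval of 0.22, and only the gap below the SCN was wider than it. SO, highest in Avp, had 7.47 and 7.51. The lowest region was the posterior olfactory bulb, at 7.11.
The dimmer probe set of Avpr1a gave the SCN 7.75 and 7.57, the only region above the median of all values. The ventral SPa had 6.77 and 7.01, DM 6.77 and 6.56, the ventral tegmental area 6.39 and 6.28, and the lateral septum 6.37 and 6.04. It spanned 2.49, correlated with the brighter one at r = 0.88 (rho 0.69), and shared 4 of the highest 5 regions.

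**Figure D4:**
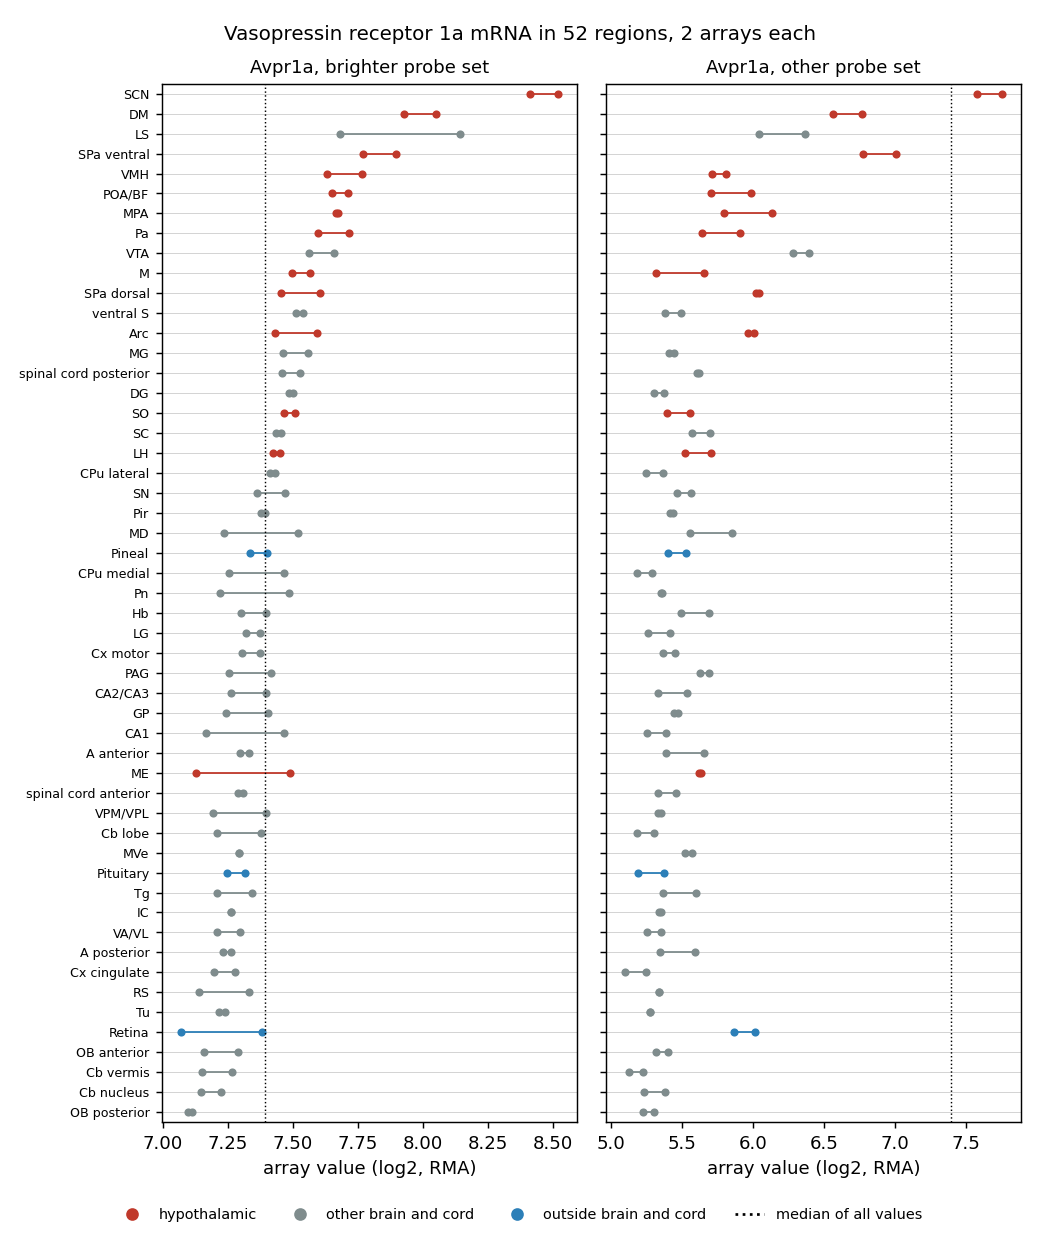
Levels of Avpr1a on the brighter probe set (left) and the other one (right), 2 arrays per region, log2 RMA, with regions in the order of the left panel. Both SCN arrays stand apart from all others in both panels.

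In the SCN Avpr1a averaged 8.46, against 7.62 over the 10 other non-magnocellular hypothalamic regions, a difference of 0.84 ± 0.08 (0.69 to 1.00; adjusted p = 1.64e-13) that was short of 2-fold; on the dimmer probe set it was 1.68 and past 2-fold (adjusted p = 2.3e-24), where 2.11% of probe sets were called. In the ventral SPa it averaged 7.83, against 7.53 in the dorsal SPa (0.30 ± 0.11; adjusted p = 0.086), and 6.89 against 6.03 on the dimmer probe set (0.86; adjusted p = 1.19e-07). The part of the markers given above for Avp in these regions was not tested. In the lateral septum, which vasopressin fibres reach from the amygdala and bed nucleus, Avpr1a averaged 7.91, against 7.39 in the 2 caudate putamen regions (0.52 ± 0.09; adjusted p = 6.56e-06; 4.57% of genes called), with both septal arrays above all 4 of the caudate putamen, as for 17.1% of genes. Without the first lateral septum array the difference was 0.29 (adjusted p = 0.061). On the dimmer probe set it was 0.93. All 4 measured striatal markers were lower in the septum. Avp and Oxt mRNA in the septum, at 7.37 and 10.09, differed from the caudate putamen by 0.14 (-0.22 to 0.51) and -0.01 (-0.34 to 0.31).

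The patterns most like Avpr1a over the 52 regions were those of Magel2 (r = 0.76), an imprinted gene of the Prader-Willi region, Peg10 (0.75), another imprinted gene, Pnma3 (0.72), Pou2f2 (0.71), a POU-domain factor, and Vax1 (0.70), a homeodomain factor of the ventral forebrain. Without the SCN and DM, the value for Pou2f2 was 0.43 and for Peg10 0.59. Those most like Oxtr on its brighter probe set were Prom2 (0.61), Socs2 (0.57), Mbnl3 (0.56), Otulinl (0.54) and Cnpy2 (0.53). Without the posterior amygdala and CA2/CA3, these were 0.64, 0.51, 0.66, 0.40 and 0.61 in the same order. That probe set spanned only 0.65, and likeness to the second Oxtr probe set was not computed.

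**Figure D5:**
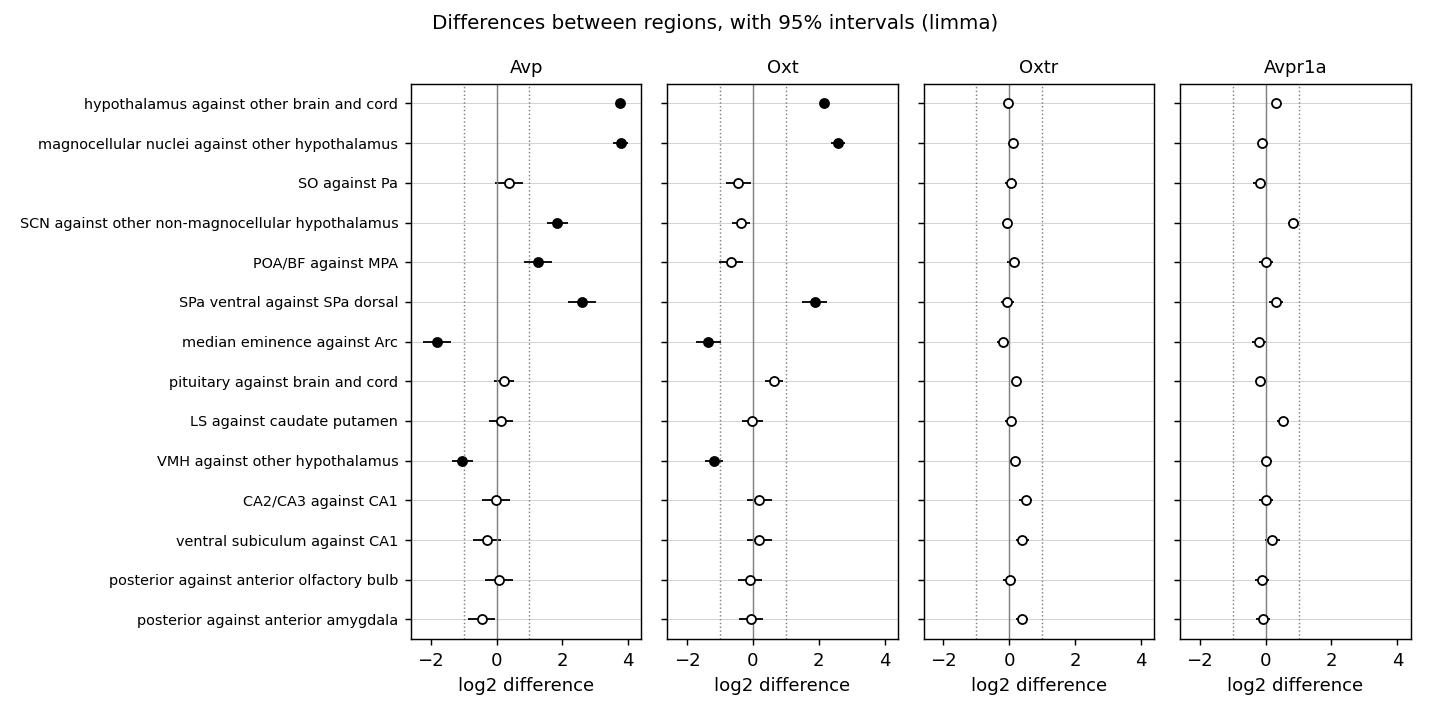
Differences of the 4 genes in the 14 comparisons, as log2 differences of the first-named over the second-named regions with 95% intervals from limma. Filled points were called, and dotted lines mark 2-fold in either direction; all filled points belong to Avp or Oxt.

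Genes that make, process or answer the peptides were read from lists chosen by role. Of 6 measured genes of peptide processing, 1 was higher in the hypothalamus than in other brain and cord: Pcsk1, a convertase that cuts prohormones, with a difference of 1.05. The list's median difference was 0.34, beside -0.01 for all genes, of which 1.68% were called in either direction. Pam, which amidates the ends of both peptides, differed by 0.43, and Cpe, the carboxypeptidase that trims them, by -0.05. Of 4 genes that specify the neurons, Otp was higher (2.08; list median 0.20), and Sim1, a factor of paraventricular and supraoptic development, differed by 0.25. Of 9 genes that magnocellular neurons also make, 3 were higher: Cartpt (2.59), Gal (1.83) and Scg2 (1.23), with a list median of 0.51. None of 7 signalling genes was called (median 0.07). Of them, 6 had an adjusted p under 0.05 in limma at differences short of 2-fold. Of all genes, 62.9% had an adjusted p under 0.05 in this comparison. Plcb1, a phospholipase C, was at -0.84 and Rgs2, which restrains Gq, at 0.67. Of 3 sex steroid receptors, Esr1 was higher (1.47; median 0.37). The other vasopressin receptors, Avpr1b and Avpr2, differed by -0.02 and -0.05. Avpr1b was highest in the pituitary, at 6.81, which is below the median of all values. Avpr2, the kidney receptor, was highest in the inferior colliculus and SO, both at 8.14.

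In SO and Pa against the other hypothalamus, the lists held 2 genes that were higher: Pcsk1 (1.05) and Caprin2 (1.60), an RNA-binding protein gene. Cartpt was lower there (-1.18). Of all genes 0.456% were called in that comparison. The median difference was -0.05 for the 6 peptide processing genes and -0.16 for the 9 magnocellular ones, beside 0.02 for all genes. In the SCN, Rasd1 (2.55) and Vgf (1.26) were higher than the mean of the other non-magnocellular hypothalamic regions, and Gal (-1.35) and Esr1 (-1.37) were lower. Here 2.27% of all genes were called. The 9 magnocellular genes had a median difference of -0.03 and the 3 steroid receptors -0.39, beside -0.05 for all genes. In POA/BF against MPA, 4 of the 9 magnocellular genes were lower, Rasd1 (-1.58), Cartpt (-1.34), Scg2 (-1.27) and Gal (-1.21), as were the steroid receptors Esr1 (-2.51) and Pgr (-1.62). The share of all genes called was 4.15%. The median difference was -0.10 for the magnocellular genes and -1.62 for the 3 steroid receptors, beside 0.0012 for all genes. In the ventral against the dorsal SPa, Otp (1.42), Vgf (1.15) and Rasd1 (1.08) were higher, as both peptides were. There 0.764% of all genes were called. The median difference was 0.24 for the 4 genes that specify the neurons and 0.23 for the 9 magnocellular ones, beside -0.01 for all genes.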

How the data were processed

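Expression was measured on Affymetrix mouse arrays, 2 for each of 52 regions. The authors deposited log2 values from RMA, per the submitters' processing notes; its version is not given in the sources used here. RMA sets all arrays to a shared distribution, so values are relative, and the number of arrays, 2 per region, limits precision. Array medians were 7.33 to 7.46, and no further normalization was applied.

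Of 45101 probe sets, 34945 had 1 gene symbol in the platform annotation, 932 several and 9160 none, and 64 were controls. The brightest probe set stood for each gene, which gave 18193 genes. A mean for each region was fitted with limma 3.58.1 in R 4.3.3 (52 residual and 7.87 prior degrees of freedom); 14 contrasts and an F test were taken, two-sided, with Benjamini-Hochberg adjustment over all genes. On data simulated for SO against Pa over 18193 genes, 200 of 200 genes planted at 1.5 were called, with 0 false calls. Every gene was given the same normal noise, and smaller differences were not simulated. The simulation therefore checks the code and cannot give the error rate on these arrays.

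The members, lists and comparisons were chosen with earlier results of these data known. Genes named were the members, list genes in order of their difference, and the 5 genes most correlated with each member over the regions, leaving out provisional symbols. Some genes of the lists were not analysed here. Alternatives were array centring, quantile normalization, a dim filter, no fold threshold, averaged probe sets, a trended and robust variance prior, weighted arrays, a replicate block, other sets of regions, and leaving out each array. Added after seeing the data were the other probe sets of Oxtr and Avpr1a, and leaving out POA/BF.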

Additional observations from a re-analysis of the deposited data

How the results depend on the processing

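Of 60 results (4 genes in 14 comparisons and the F test), 15 were called, and 11 of these kept direction and call under every alternative run. Of 2262 alternative values, 2203 kept both, and 32 turned direction, all where neither value was called. Many of these values had little room to move, so the count is no measure of robustness. Of them, 1656 left out 1 array, often 1 of many. Dropping the fold threshold cannot remove a call. Avp and Oxt have 1 probe set each, so averaging probe sets cannot move their values. The Avp difference of POA/BF against MPA was 0.92 to 1.60 with 1 array left out (0.92 without POA/BF replicate 2). For Avp in VMH the range was -1.22 to -0.85 (call lost without VMH replicate 1 or, at -0.99, ME replicate 1); it was -0.98 after centring, -0.96 after quantile normalization, -0.41 without SO and Pa, and -0.81 without POA/BF. For Oxt in VMH it was -1.48 to -0.87 (lost without VMH replicate 2) and -0.76 without SO and Pa. For Oxt in ME against Arc it was -1.76 to -0.94 (lost without ME replicate 2). Their causes were not tested.

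Dropping the fold threshold added calls at unchanged values: Oxt in the SCN (-0.37), in POA/BF against MPA (-0.66) and in the pituitary (0.63), Oxtr over all regions (0.65), in the pituitary (0.21), CA2/CA3 (0.49), ventral subiculum (0.40) and posterior amygdala (0.39), and Avpr1a in the hypothalamus (0.33), SCN (0.84) and lateral septum (0.52). It also raised the share of all genes called, to 62.9% in the hypothalamic comparison. The other probe set added calls for Oxtr over all regions (2.20), in CA2/CA3 (1.34) and in the ventral subiculum (1.43), and for Avpr1a in the SCN (1.68). The mean of the probe sets added Oxtr over all regions (1.42) and Avpr1a in the SCN (1.26). It cut all calls to 161 genes in VMH, against 242, and to 93 in the posterior amygdala, against 147; leaving out POA/BF raised them to 134 for SO and Pa, against 83.

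Small differences turned direction. With the other probe set, Oxtr was 0.0042 in the hypothalamus, -0.116 in SO and Pa, -0.0214 for SO against Pa and -0.0105 in the pituitary, and Avpr1a was -0.12 in POA/BF against MPA and -0.32 in VMH. With the mean of probe sets, Oxtr was -0.0042 in SO and Pa, and Avpr1a was -0.0553 in POA/BF against MPA and -0.15 in VMH. After centring, Oxtr was -0.0061 for SO against Pa, and Avpr1a was -0.0142 in POA/BF against MPA and -0.0356 in CA2/CA3. After quantile normalization, Oxtr was -0.0184 for SO against Pa and 0.0062 in the SCN, Avpr1a was -0.0355 in POA/BF against MPA and -0.0908 in CA2/CA3, and Oxt was 0.0128 in the posterior amygdala. With 1 array left out, ranges that crossed 0 were -0.15 to 0.12 for Avp in CA2/CA3, -0.0482 to 0.18 for Avp in the posterior olfactory bulb, -0.0583 to 0.029 for Oxt in the lateral septum, -0.17 to 0.0523 for Oxt in the posterior amygdala, -0.0808 to 0.18 for Oxtr in SO against Pa, -0.0518 to 0.15 for Oxtr in the lateral septum, -0.0147 to 0.0419 for Oxtr in the posterior olfactory bulb, -0.019 to 0.0402 for Avpr1a in POA/BF against MPA, -0.0458 to 0.0904 for Avpr1a in VMH and -0.14 to 0.16 for Avpr1a in CA2/CA3.

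Same-numbered arrays of different regions correlated in their deviations at a median of -0.0004 over 1326 region pairs (range -0.50 to 0.52, with 24.7% of pairs over 0.1). This median shows no pairing common to all regions. It cannot exclude pairing among some of them, which was not tested. Since every region holds both numbers, the fit with the replicate number as a block cannot move a difference (3.75 for Avp in the hypothalamus, 1.26 in POA/BF against MPA) and bears only on its error; it changed the call of none of the 60 results. With 2 arrays a region, a difference of about 0.4 in Avp between 2 regions cannot be told from the spread.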
